A study of Mus musculus with 7 samples.

Results

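The 59 Rab genes of the counts table, the mouse genes named Rab1a to Rab44, were examined in microglia sorted from inside WT neuronal grafts and from cortex outside them. They were taken by a fixed pattern of gene name (Rab, a number, and at most 1 letter and 1 more digit), which leaves out effectors and pseudogenes, and they are 59 of the 55341 gene names in the table. Rab7, Rab7b, Rab27a, Rab32 and Rab38, which serve lysosomes and lysosome-related organelles, were followed in particular. All libraries came from the cortex of 5xFAD mice on a C57BL/6 background at 14 weeks of age. These mice express mutant human APP and PS1 transgenes from the Thy1 promoter in neurons, not in microglia. The host mice of both groups had received an injection of WT embryonic cortical cells 4 weeks before. CD11b+CD45low cells were sorted from the dissected graft (inside graft, n = 3 libraries) or from small pieces of nearby host cortex (outside graft, n = 4 libraries). The outside samples are therefore grafted transgenic cortex, and no library of an ungrafted mouse was compared here.

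Rab proteins are small GTPases that give membranes their identity. A guanine nucleotide exchange factor (GEF) loads a Rab with GTP on its membrane, the active Rab recruits motors, tethers and other effectors, and a GTPase-activating protein (GAP) ends the cycle, after which the prenylated protein is lifted off the membrane by a GDP dissociation inhibitor. In macrophages, microglia included, a phagosome matures by exchanging early endosomal Rab5 for late endosomal Rab7, and lysosome-related organelles depend on Rab27a, Rab32 and Rab38.

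The libraries held 23241114 to 25882122 counted reads inside and 18644807 to 24599193 outside the graft. The microglial identity of the sort was visible in both groups, since 8 microglia markers summed to 44140-51400 CPM (counts per 1000000 counted reads, after TMM scaling) inside and 50300-56400 outside, and 8 neuron markers to 4.16-10.5 over all libraries. Of the 8 microglia markers 4 (50%) were lower and 0 higher inside at an unadjusted P below 0.05 in voomWithQualityWeights. The shares over all genes were 4.71% and 7.47%. All 8 log2 fold changes were below 0, from -0.496 to -0.0129, and 0 of the markers passed an adjusted P of 0.05. Transcripts of other myeloid cells were present inside the graft. The antibody panel in the study's methods included Ly6C and Ly6G, surface markers of monocytes and neutrophils. The 8 neutrophil markers summed to 7513, 797 and 15300 CPM in inside graft 1, 2 and 3, against 0.311 to 367 outside, and the 9 monocyte markers to 665, 82.2 and 1374 against 6.99 to 34.1. Chil3 carried most of the monocyte sum, and without it the sum was 77.9, 14.6 and 185.5 CPM inside against 6.99 to 32.7 outside, with inside graft 2 within the outside range. At an unadjusted P below 0.05 in voomWithQualityWeights, 2 of the 8 tested monocyte markers (25%) were higher inside, beside 7.47% of all genes. The same held for 5 of the 7 tested neutrophil markers (71.4%), namely S100a8, S100a9, Ly6g, Camp and Ltf. All 5 passed the filter on low counts only with the inside libraries, where they were high. This share can therefore not be set against that of all genes. The 10 markers of border-associated macrophages summed to 397-653 CPM inside and 534-633 CPM outside. Most of that sum was Stab1, and without it the sums were 119.8, 18.1 and 125 CPM inside and 6.32-17.8 CPM outside, with no overlap. Of the 9 tested markers 6 (66.7%) were higher inside and 1, Stab1 (11.1%), lower at an unadjusted P below 0.05 in voomWithQualityWeights. Over all genes these shares were 7.47% and 4.71%. Some other markers, Chil3, Ms4a7, Pf4, F13a1 and Folr2 among them, also passed the filter on low counts only with the inside libraries, where they were high. Values of the members with an unadjusted P below 0.05, and of others that moved, are also given without inside graft 1 and 3. In RNA from bulk cells, a change in how many cells of a type were sorted cannot be told apart from a change in RNA per cell.

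Rab transcripts made up a nearly constant part of the library. Summed over the family they reached 3132 ± 144 CPM inside (SD, n = 3; range 3040-3298) and 3191 ± 19.4 CPM outside the graft (SD, n = 4; range 3163-3207), so the inside libraries lay on both sides of the outside ones. Levels of different genes were compared per length, as CPM per kilobase of exon (RPKM, mean of both groups). Rab2a, which acts between the endoplasmic reticulum and the Golgi, stood first with 81.3 RPKM, followed by Rab7, the Rab of late endosomes and lysosomes, with 76.5 RPKM. The order of these 2 differed between the groups, since Rab7 led inside (80.4 against 77.2 RPKM) and Rab2a outside (85.3 against 72.6 RPKM). Next came the recycling-endosome Rab11a at 57.8 RPKM, Rab31 at 56.1 RPKM, the secretory Rab1a at 55.3 RPKM, Rab1b at 48.8 RPKM, Rab10 at 45.3 RPKM and Rab8b at 41.95 RPKM. These 8 genes held 52.3% of the summed level per length of the family. Rab32, the leading Rab of lysosome-related organelles, was ninth with 41.4 RPKM.

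**Figure D1:**
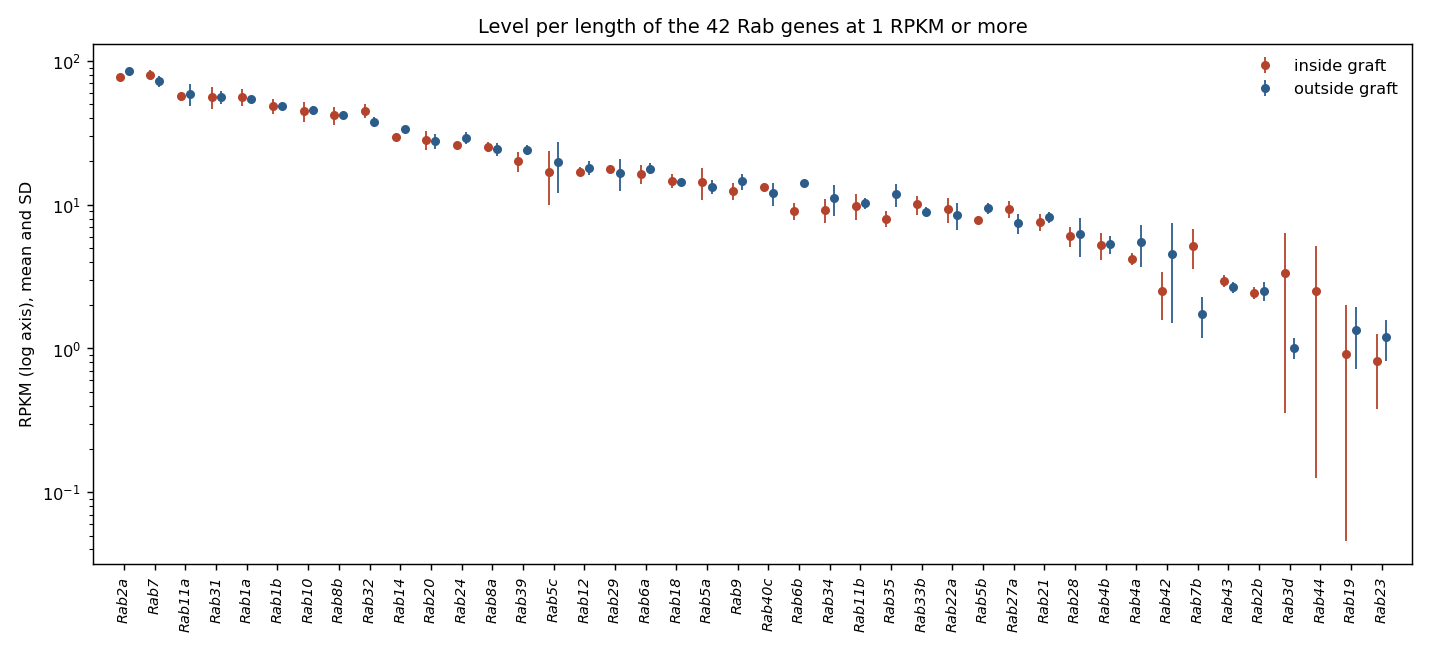
Level per length (RPKM, log axis) of the 42 Rab genes at 1 RPKM or more, as mean and SD of 3 inside (red) and 4 outside (blue) libraries, ordered by the mean of both groups. Lower bars that would reach 0 are shortened to stay on the log axis, and Rab44 has no outside point because its outside libraries are at 0. The order runs from Rab2a at 81.3 RPKM downwards, and the red and blue points stand closest for the abundant genes. The widest gaps between the group means, leaving Rab44 aside, are those of Rab3d, Rab7b, Rab42 and Rab6b.

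The expressed repertoire was broad but not complete. Of the 59 genes, 25 reached 10 RPKM, 42 reached 1 RPKM, 17 stayed under 1 RPKM and 9 under 0.1 RPKM. The order of the 47 tested genes was nearly the same in both groups, with a Spearman's rho of 0.984 between the group means (n = 47 genes, which share libraries and gene lengths, so the value is a description across genes).

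The main comparison asked whether Rab transcripts differed between microglia inside and outside the graft. After removal of low counts, 47 of the 59 Rab genes and 15257 genes in all were tested with limma's voomWithQualityWeights, and edgeR's quasi-likelihood test was given beside it, both adjusted by the Benjamini-Hochberg method over all genes tested. Nothing in the sources used here shows that the libraries came from separate mice, so the p-values measure the spread between these samples. At an adjusted P of 0.01, 0 Rab genes passed, where 0.0197% of all genes did, and at 0.05 the number was again 0 against 0.492% of all genes. With edgeR, 0 Rab genes passed 0.05 against 0.0983% of all genes. Before adjustment, 4 Rab genes were higher inside at P below 0.05 (Rab7b, Rab3d, Rab36 and Rab37, 8.51% of the tested members), beside 7.47% of all genes. A further 3 were lower inside (Rab6b, Rab14 and Rab35, 6.38%), beside 4.71% of all genes. With edgeR 5 Rab genes had an unadjusted P below 0.05 in either direction, beside 9.55% of all genes. The shares of Rab genes past these thresholds were thus close to those of all genes. Of the 4 higher, Rab36 and Rab37 passed the filter on low counts only with the inside libraries, where they were high. Neither was tested when every library had to hold 10 counts or more. With that filter 2 Rab genes (Rab7b and Rab3d) were higher at an unadjusted P below 0.05 in voomWithQualityWeights. A comparison without inside graft 1 and 3, added after seeing the data, leaves 1 inside library and assumes that it varies like the others. From this comparison log2 fold changes are given. With 1 library left out at a time, the number of Rab genes higher at an unadjusted P below 0.05 in voomWithQualityWeights ran from 1 (without inside graft 3 or outside graft 2) through 2 (without outside graft 3) to 5. The number lower ran from 1 (without inside graft 1, inside graft 3 or outside graft 3) to 4.

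Counted by library, 2 of the 47 tested Rab genes (Rab7b and Rab37) had every inside library above every outside one, beside 5.65% of all genes. In 5 of the 47 (Rab6b, Rab14, Rab5b, Rab2a and Rab39) every inside library was below, a larger share than the 5.02% of all genes. Whether that share differs beyond chance was not tested. The fold changes were small for most members. The median log2 fold change of the 47 was -0.0456, against -0.0128 over all genes tested, with 22 values above 0 and 25 below, and 31 (66.0%) lay within 0.25 of 0, where 52.2% of all genes did. The 95% confidence interval lay within 1 of 0 on the log2 scale for 36 members (76.6%; 58.1% of all genes), so for these a 2-fold change in either direction was outside the interval. Among the 33 members with at least 10 CPM in every library it did so for 33, against 95.7% of 7866 such genes.

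**Figure D2:**
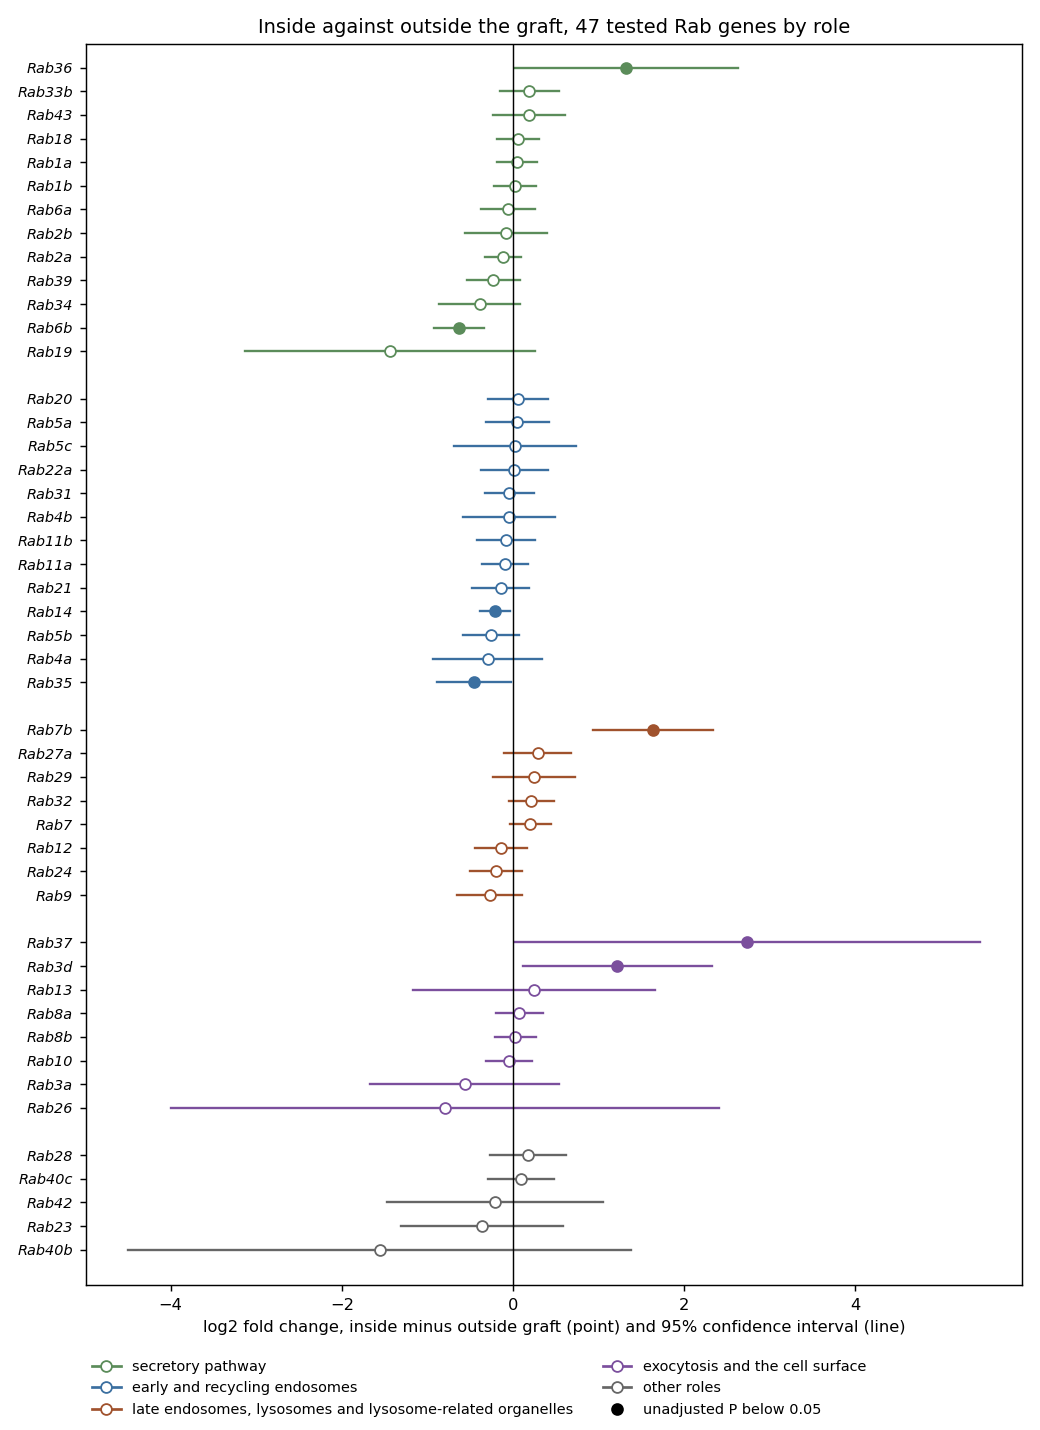
Log2 fold change (inside minus outside graft, x axis) with its 95% confidence interval from voomWithQualityWeights for the 47 tested Rab genes (y axis), grouped and coloured by role. Filled points have an unadjusted P below 0.05: Rab36, Rab7b, Rab37 and Rab3d to the right of 0, and Rab6b, Rab14 and Rab35 to the left. Wide lines belong to genes with few counts, such as Rab37, Rab26 and Rab40b.

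Among the Rabs of late endosomes, lysosomes and lysosome-related organelles, Rab7b stood apart from the rest. Rab7b, which moves cargo from late endosomes to the trans-Golgi network and takes part in the traffic of Toll-like receptors in macrophages, lies on chromosome 1 (GRCm38 chr1:131688695-131715439, plus strand). It had 17.8, 32.1 and 21.8 CPM inside the graft and 7.63, 10.3, 4.67 and 9.36 CPM outside. The lowest inside library was above the highest outside library, and inside graft 2, which held the fewest neutrophil and monocyte transcripts of the inside libraries, was the highest of all. The part of other myeloid cells in the Rab7b values was not tested. The log2 fold change was 1.64 (SE 0.32, 95% confidence interval 0.94 to 2.34), with an unadjusted P of 0.000311 and an adjusted P of 0.0527 in voomWithQualityWeights. The edgeR estimate was 1.58 with an adjusted P of 0.0919, so Rab7b did not pass 0.05 in either test. It did so under other settings, with an adjusted P of 0.0165 under a filter that asked every library for 10 counts or more and 0.000348 with DESeq2. Without inside graft 1 and 3, which leaves 1 inside library, the log2 fold change of Rab7b was 2.14. Over all 17 alternative settings the adjusted P of Rab7b ran from 0.000348 to 0.274.

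Rab7b remained a minor form. As a share of Rab7 and Rab7b together, per length, it took 4.25, 8.19 and 5.80% inside and 2.09, 2.79, 1.39 and 3.07% outside the graft, so the shares of the groups did not overlap. Rab7 itself (chr6:87999106-88045270, minus strand), which drives fusion of late endosomes and phagosomes with lysosomes, had 226, 203 and 200.1 CPM inside and 202, 203, 187 and 167 CPM outside. The groups overlapped, with a log2 fold change of 0.20 (SE 0.11, adjusted P = 0.495 in voomWithQualityWeights). Part of its transcript, 10.2% of 75-base windows, is shared with other genes, mostly the pseudogene Rab7-ps1, and reads from such windows were not counted when they aligned to several places.

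Rab27a, which docks lysosome-related organelles and multivesicular bodies at the plasma membrane, lies at chr9:73044854-73097629 (plus strand). It had 40.4, 37.3 and 30.8 CPM inside and 25.6, 26.3, 27.4 and 35.6 CPM outside. Outside graft 4 reached into the inside range, and the log2 fold change of 0.29 (SE 0.18) had an adjusted P of 0.580 in voomWithQualityWeights. Rab32 (chr10:10545002-10558265, minus strand), which with Rab38 directs cargo to lysosome-related organelles, had 114, 91.8 and 111 CPM inside and 80.8, 83.8, 94.6 and 93.7 CPM outside. Here inside graft 2 lay within the outside range, and the log2 fold change was 0.21 (SE 0.12, adjusted P = 0.539 in voomWithQualityWeights). Without inside graft 1 and 3 it was 0.0158 for Rab32, 0.33 for Rab27a and 0.15 for Rab7. Without outside graft 4 it was 0.45 for Rab27a and 0.11 for Rab7, and without inside graft 1 it was 0.18 for Rab27a and 0.14 for Rab7. The upper ends of the 95% confidence intervals were 0.44 for Rab7, 0.68 for Rab27a and 0.48 for Rab32, so a 2-fold rise of any of them was outside the interval.

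Rab38 (chr7:88430273-88491572, plus strand) was close to undetected. It had 5 counts in inside graft 1, 1 count in outside graft 1 and 0 in the other 5 libraries, and was not tested. The Rab pair of melanosome formation was thus represented by Rab32 in these libraries, as the Rab27 pair was by Rab27a, for which Rab27b contributed 4 counts in inside graft 1 alone. A count of 0 allows up to 3 counts, a limit that covers counting error only. The remaining tested members of the class were Rab29, Rab12, Rab24 and Rab9, with log2 fold changes from -0.27 to 0.24 and overlapping groups. The median of the 8 tested members was 0.21. Of these 1, Rab7b, had an unadjusted P below 0.05 in voomWithQualityWeights (12.5%, beside 12.2% of all genes).

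**Figure D3:**
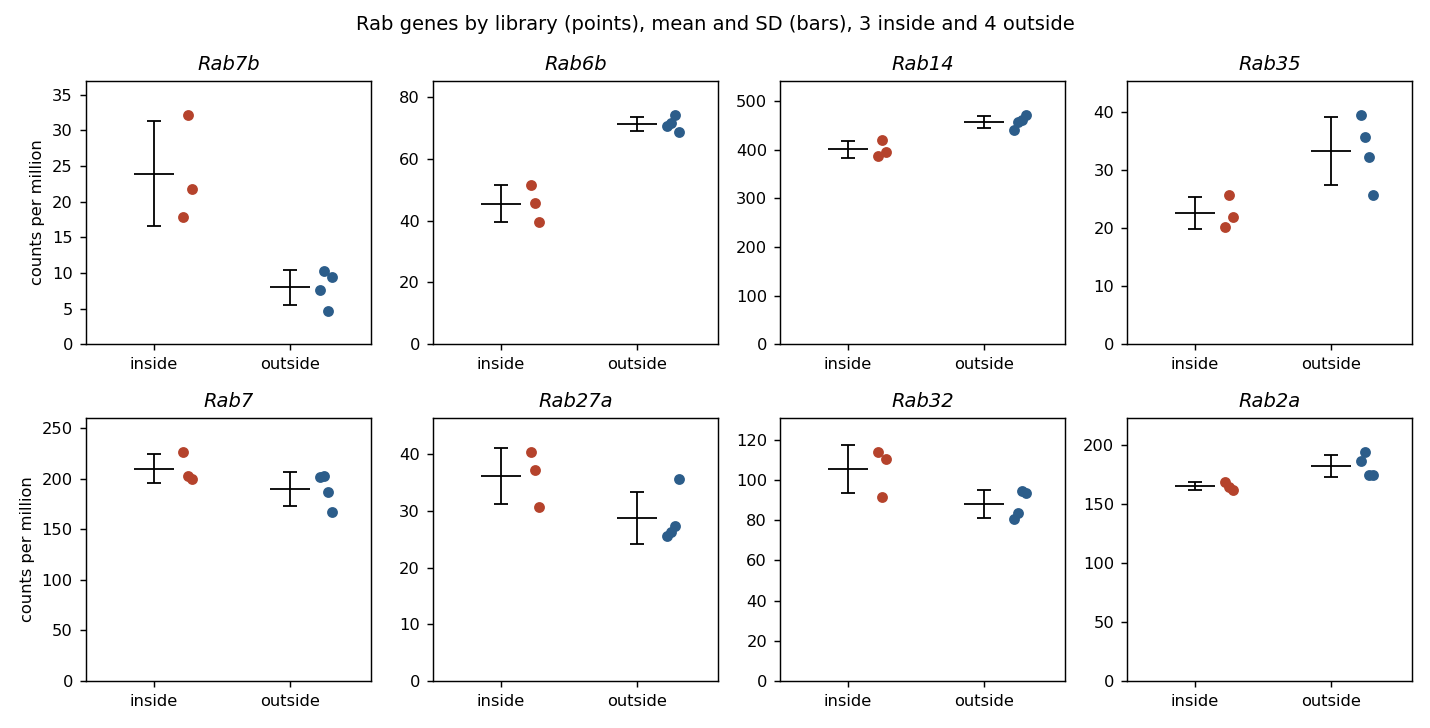
CPM by library (points) with mean and SD (bars) for 8 Rab genes, 3 libraries inside (red) and 4 outside the graft (blue), each y axis starting at 0. The inside points lie above the outside points for Rab7b and below them for Rab6b, Rab14 and Rab2a, and the groups overlap for Rab7, Rab27a and Rab32 and, by the margin of a single library, Rab35.

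The Rabs of the secretory pathway held the clearest lower value. Rab6b, a Golgi Rab of retrograde transport known for its abundance in brain, is at chr9:103111787-103185276 (plus strand). It had 51.4, 45.6 and 39.5 CPM inside and 70.7, 71.5, 74.1 and 68.6 CPM outside the graft. Every inside library was below every outside one, and the 4 outside libraries spanned a narrow range. The log2 fold change was -0.63 (SE 0.13, 95% confidence interval -0.93 to -0.34), with an unadjusted P of 0.00059 and an adjusted P of 0.0638 in voomWithQualityWeights and 0.0966 in edgeR. It passed 0.05 with an adjusted P of 0.0448 under the stricter filter of 10 counts in every library, and with 0.000749 in DESeq2. Over all 17 alternative settings its adjusted P ran from 0.000749 to 0.278, and without inside graft 1 and 3 its log2 fold change was -0.64.

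The near relative Rab6a, which serves the same step, had 51.6 to 70.2 CPM inside and 59.2 to 73.4 CPM outside and a log2 fold change of -0.06. As a result, Rab6b took 35.2, 39.6 and 31.8% of the 2 genes together inside, per length, and 41.7, 43.98, 45.4 and 46.2% outside, shares that did not overlap. The value for Rab6a is less certain, because 19% of its exon bases overlap those of Mrpl48 on the opposite strand and strand was not used in counting.

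Rab36, a Golgi Rab that positions late endosomes, was low, with 2.04, 3.64 and 3.79 CPM inside and 0.374, 0.400, 1.25 and 2.19 CPM outside. It passed the filter on low counts only with the inside libraries, where it was higher. Outside graft 4 was above inside graft 1, and the log2 fold change was 1.33 (SE 0.59) with an adjusted P of 0.400 in voomWithQualityWeights (1.68 without inside graft 1 and 3, and 2.12 without outside graft 4). Rab2a, first per length in the mean of both groups, had 168, 164 and 161 CPM inside and 186, 194, 174 and 174 CPM outside, so the groups did not overlap, yet the difference was small (log2 fold change -0.11, SE 0.09, adjusted P = 0.713 in voomWithQualityWeights). The largest fold change of the class by size was that of Rab19, at -1.44 (SE 0.77, adjusted P = 0.508 in voomWithQualityWeights), from 0.393, 3.42 and 0.548 CPM inside and 1.29 to 3.30 CPM outside. Inside graft 2 was above all outside libraries for this gene, and without inside graft 1 and 3 its log2 fold change turned to 0.56. With 1 library left out it ran from -2.29 (without inside graft 2) to -0.78 (without inside graft 1). Of the 13 tested members 11 had an interval within 1 of 0, among them the abundant Rab1a and Rab1b, which act between the endoplasmic reticulum and the Golgi, with log2 fold changes of 0.05 and 0.02.

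For the Rabs of early and recycling endosomes, all 13 tested members had an interval within 1 of 0. Rab14, which acts between early endosomes and the Golgi and is present on phagosomes, had 387, 421 and 395 CPM inside and 440, 458, 460.5 and 471 CPM outside. The groups did not overlap, and with its high count the small log2 fold change of -0.21 (SE 0.08, 95% confidence interval -0.38 to -0.03) had an unadjusted P of 0.0242, but an adjusted P of 0.307 in voomWithQualityWeights. Without inside graft 1 and 3 it was -0.13. Rab35, which returns cargo quickly from endosomes to the plasma membrane, had 20.25, 25.65 and 21.95 CPM inside and 39.43, 35.67, 32.31 and 25.64 CPM outside. Inside graft 2 and outside graft 4 met at the same level, and the log2 fold change was -0.46 (SE 0.20, adjusted P = 0.374 in voomWithQualityWeights). It was -0.26 without inside graft 1 and 3.

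Rab11a, the main Rab of recycling endosomes and the most abundant member of this class per length, had 160-183 CPM inside and 135-206 CPM outside and a log2 fold change of -0.09 (SE 0.12). The 3 Rab5 genes of early endosomes gave log2 fold changes of 0.05 (Rab5a), -0.25 (Rab5b) and 0.03 (Rab5c). For Rab5c the mean was lower inside (36.8 against 43.3 CPM) and edgeR gave -0.23, so the sign depended on the test. Rab5b had every inside library (31.7-35.2 CPM) below every outside one (35.9-43.3 CPM), with an adjusted P of 0.555 in voomWithQualityWeights. Over the class, 9 of 13 log2 fold changes were below 0, with a median of -0.08.

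Among the Rabs of exocytosis and the cell surface, Rab44 and Rab3d were highest in the 2 libraries with the most neutrophil transcripts. At an unadjusted P below 0.05 in voomWithQualityWeights, 2 of the 8 tested members (Rab3d and Rab37, 25%) were higher inside, beside 7.47% of all genes. In the other direction 0 were lower, beside 4.71% of all genes. Of the 2 higher, Rab37 passed the filter on low counts only with the inside libraries, where it was higher, which limits the comparison of these shares. Rab44, a large atypical Rab with an EF-hand, known from mast cells and osteoclasts (chr17:29114145-29148980, plus strand), had 264, 5 and 649 counts inside the graft and 0 in all 4 outside libraries. The filter on low counts removed it, so it was not among the 47 tested. Against the 3 counts that a sum of 0 over the outside group allows, it was at least 387-fold higher inside. The bound rests on inside graft 1 and 3. It is 169.5-fold from inside graft 1 and 2, 428-fold from inside graft 2 and 3 and 6.71-fold for inside graft 2 alone, which held 5 counts. No P is given for Rab44, since it can enter a test only through the inside libraries where it is high. Its order over the inside libraries, highest in inside graft 3 (27.3 CPM), then inside graft 1 (10.4 CPM) and lowest in inside graft 2 (0.222 CPM), was that of the neutrophil sum (15300, 7513 and 797 CPM) and the monocyte sum (1374, 665 and 82.2 CPM). Of the neutrophil markers, Retnlg and Mmp8 stayed at no more than 6.72 CPM in any library, while S100a8, S100a9, Camp, Ngp and Ltf carried the sum. Their part in the Rab44 counts was not tested.

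Rab3d, which acts in the exocytosis of secretory granules, had 9.03, 4.88 and 28.6 CPM inside and 3.42, 4.40, 5.07 and 4.09 CPM outside. Inside graft 2 lay within the outside range and inside graft 3 was far above all others. The log2 fold change was 1.22 (SE 0.50, adjusted P = 0.356 in voomWithQualityWeights), and it was 0.14 without inside graft 1 and 3. Leaving out inside graft 3 alone gave 0.60, and leaving out inside graft 2 gave 1.83. Rab37, known from granules of mast cells, was near the limit of detection, with 19, 14 and 56 counts inside and 10, 7, 14 and 0 counts outside. It passed the filter on low counts only with the inside libraries, where it was higher. The groups did not overlap in CPM, and the log2 fold change of 2.74 had an SE of 1.24 and an adjusted P of 0.407 in voomWithQualityWeights (2.05 without inside graft 1 and 3, and 1.12 without outside graft 4, its library at 0). Both genes were highest in inside graft 3, and the part of other myeloid cells in their values was not tested.

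The abundant members of this class lay near 0. Rab10, which carries vesicles to the plasma membrane, had the highest level per length among them, with 183, 132 and 159 CPM inside and 146-174 CPM outside and a log2 fold change of -0.05 (SE 0.12) that took either sign depending on the library left out. Rab8a and Rab8b, of vesicle delivery to the cell surface, had log2 fold changes of 0.08 and 0.03. In the neuronal synaptic vesicle Rab, Rab3a, the values were 0.927-2.26 CPM inside and 1.601-3.04 CPM outside.

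**Figure D4:**
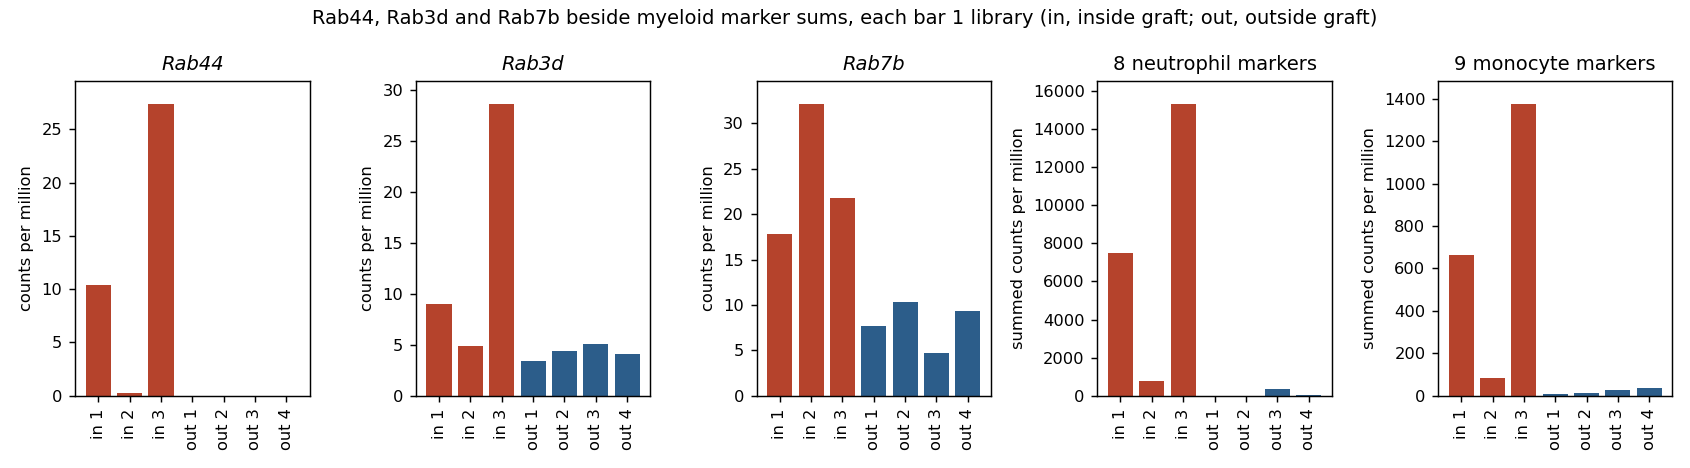
Rab44, Rab3d and Rab7b (CPM) beside the summed CPM of 8 neutrophil and 9 monocyte markers, 1 bar per library, 3 inside (red) and 4 outside the graft (blue). Rab44 and Rab3d are highest in inside graft 3, as both sums are. Rab7b is highest in inside graft 2, where the sums are 797 and 82.2 CPM. The part of other myeloid cells in the values of the 3 genes was not tested.

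Of the remaining Rabs, Rab40c, which joins a Cullin-5 ubiquitin ligase, had the highest level per length, with 39.2, 39.9 and 44.4 CPM inside and 30.7 to 46.98 CPM outside and a log2 fold change of 0.09 (SE 0.18). Its relative Rab40b showed the largest fold change by size, -1.55 with an SE of 1.34, on at most 15 counts in a library. It was -0.29 without inside graft 2, where it had 0 counts, -2.45 without inside graft 3 and -4.15 without inside graft 1 and 3. For Rab23, a regulator of Hedgehog signalling, the log2 fold change was -0.36 and the groups overlapped. None of the 5 members of this class had an unadjusted P below 0.05 in voomWithQualityWeights.

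The 12 members that failed the filter were Rab3b, Rab3c, Rab9b, Rab15, Rab17, Rab25, Rab27b, Rab30, Rab33a, Rab38, Rab39b and Rab44. Rab17 had 0 counts in all 7 libraries. Rab39b had 24 and 63 counts in outside graft 1 and 2 and 0 in all others, Rab15 had 23 and 7 counts in outside graft 3 and 4 and 0 in all others, and Rab30 had 38 counts in inside graft 3 and at most 8 elsewhere. The other members apart from Rab44 had at most 12 counts in any library. No P is given for Rab15 and Rab39b, since they can enter a test only through the outside libraries where they have counts. For the members that failed the filter, a difference between the groups was not tested in the main comparison.

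Some member values are uncertain because genes overlap. Exons of Rab43 overlap those of Gm45140 over 75.4% of their bases, those of Rab4b overlap other genes over 65%, those of Rab2b over 64% (Gm43766 and Tox4, both on the opposite strand), those of Rab24 over 62.4% (Prelid1, opposite strand) and those of Rab20 over 25.6%. Rab7b, Rab6b, Rab14, Rab35, Rab3d, Rab36, Rab37, Rab32, Rab38 and Rab44 overlapped no annotated exon of another gene in GENCODE M21.

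The region just before the gene start was examined in RefSeq promoter windows (250 bases before to 50 after the start, GRCm38.p6), which matched 48 of the 59 genes in 60 windows. Motifs were searched only in the 250 bases before the start, and the shares below refer to this part of the windows. The GC box, GGGCGG or its reverse complement CCGCCC, occurred in 40 of 60 Rab windows (66.7%) and in 32.7% of all 32851 windows. The E-box CACGTG, searched on both strands, stood in 5 Rab windows (8.33%, 6.02% of all windows), those of Rab5a, Rab20, Rab21, Rab23 and Rab27a. A match of letters is a description and not a binding site. The upstream bases are printed for Rab14 and Rab35, with lower values inside the graft before adjustment, and for Rab3d, with higher values, as the genes of that kind whose window holds upstream sequence outside annotated exons. GC boxes are in capitals, and each sequence runs 5′ to 3′ on the strand of the gene.
Rab14 (chr2:35201121-35201370, minus strand): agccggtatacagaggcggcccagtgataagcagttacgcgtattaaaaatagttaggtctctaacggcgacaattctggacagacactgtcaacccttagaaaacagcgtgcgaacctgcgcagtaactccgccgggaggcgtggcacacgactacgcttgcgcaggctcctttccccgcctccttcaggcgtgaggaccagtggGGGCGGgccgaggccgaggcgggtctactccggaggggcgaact
Rab35 (chr5:115631737-115631907, plus strand): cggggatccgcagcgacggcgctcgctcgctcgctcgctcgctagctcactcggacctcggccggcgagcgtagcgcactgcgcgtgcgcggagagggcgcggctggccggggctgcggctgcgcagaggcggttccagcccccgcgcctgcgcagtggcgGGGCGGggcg
Rab3d (chr9:21918193-21918433, minus strand): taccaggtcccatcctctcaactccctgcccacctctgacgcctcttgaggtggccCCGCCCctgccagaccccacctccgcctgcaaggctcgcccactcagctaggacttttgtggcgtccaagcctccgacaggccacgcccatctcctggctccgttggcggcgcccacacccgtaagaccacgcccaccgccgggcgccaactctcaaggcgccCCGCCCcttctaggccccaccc
The stretches shown for Rab14 and Rab35 each held 1 GC box and that for Rab3d held 2. The GC content of these stretches was 60%, 79.5% and 69.3%. The GC box stood in 66.7% of Rab windows, and a link of the motif to the direction of change was not tested.

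Genes that run the Rab cycle were taken from 6 lists that hold 133 genes of the table, 118 of them tested. In voomWithQualityWeights 6 were higher and 9 lower inside at an unadjusted P below 0.05 (12.7% in both directions, against 12.2% of all genes), with a median log2 fold change of -0.09. The lists were chosen with results of these data known and got no test of their own.

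Among the effectors 4 of 30 tested genes (13.3%) were higher and 2 (6.67%) lower at an unadjusted P below 0.05 in voomWithQualityWeights, beside 7.47% and 4.71% of all genes, and 1 passed adjustment. Myo5a, the myosin that carries organelles for Rab27a, was the only gene of all 6 lists past an adjusted P of 0.05, with 51.8, 72.4 and 74.3 CPM inside and 22.6, 24.1, 18.0 and 17.4 CPM outside. Its groups did not overlap, and its log2 fold change was 1.74 with an adjusted P of 0.00829 in voomWithQualityWeights and 0.0321 in edgeR. Melanophilin (Mlph), the adaptor that joins Rab27a to this motor, had the opposite sign, with 108-112 CPM inside and 117-169 CPM outside (log2 fold change -0.39, adjusted P = 0.269 in voomWithQualityWeights). Bicd2, the dynein adaptor recruited by Rab6, had 121-149 CPM inside and 166-172 CPM outside (log2 fold change -0.30, adjusted P = 0.242 in voomWithQualityWeights), so its groups did not overlap and it had the sign of Rab6b. Rab11fip1, a Rab11 effector, was low, with 6.12, 1.07 and 3.45 CPM inside and at most 1.33 CPM outside. It passed the filter on low counts only with the inside libraries, where it was higher.

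Of the 33 tested GEFs 1 (3.03%) was higher and 4 (12.1%) were lower at an unadjusted P below 0.05 in voomWithQualityWeights. Over all genes these shares were 7.47% and 4.71%. After adjustment 0 GEFs passed. Dennd2d had 3.95-6.91 CPM inside and 1.49-3.07 CPM outside (log2 fold change 1.25, adjusted P = 0.160 in voomWithQualityWeights). Rab3il1, an exchange factor for the Rab3 and Rab8 group, had 611-710 CPM inside and 750-843 CPM outside, Rin3, an exchange factor for Rab5, had 48.6-58.3 CPM inside and 63.7-88.0 CPM outside, and Rgp1, part of the exchange factor for Rab6, had 9.03-14.7 CPM inside and 14.8-22.5 CPM outside. None of the 3 overlapped between the groups, and their log2 fold changes were -0.30, -0.40 and -0.72 with adjusted P values of 0.172, 0.265 and 0.271 in voomWithQualityWeights. Ric1, the partner of Rgp1 in the exchange factor for Rab6, had the opposite sign. It had 15.2-21.2 CPM inside and 11.3-15.9 CPM outside, with overlapping groups (log2 fold change 0.46, adjusted P = 0.415 in voomWithQualityWeights).

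Of the 32 tested GAPs 0 passed adjustment. At an unadjusted P below 0.05 in voomWithQualityWeights, 1 (3.12%) was higher and 2 (6.25%) were lower inside, beside 7.47% and 4.71% of all genes. Tbc1d8 had 90.6, 115 and 104 CPM inside and 46.3, 58.7, 59.7 and 73.1 CPM outside, with no overlap (log2 fold change 0.69, adjusted P = 0.0663 in voomWithQualityWeights). Tbc1d7 had 4.35-7.96 CPM inside and 8.05-14.1 CPM outside (adjusted P = 0.331 in voomWithQualityWeights). Tbc1d14, a regulator of autophagy, had 139-160 CPM inside and 151-208 CPM outside, so its groups overlapped (adjusted P = 0.403 in voomWithQualityWeights).

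Of the 10 tethering subunits of HOPS and CORVET, which bring Rab5 and Rab7 membranes together for fusion, 0 passed adjustment. Vps11 had an unadjusted P of 0.0467 and an adjusted P of 0.400 in voomWithQualityWeights, with overlapping groups of 86.5-92.5 CPM inside and 87.9-128 CPM outside. The intervals of all 10 lay within 1 of 0. None of the 10 genes of prenylation and membrane extraction and none of the 3 Rab kinases and phosphatases had an unadjusted P below 0.05 in voomWithQualityWeights.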

How the data were processed

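Bulk RNA-seq libraries (3 inside, 4 outside graft) were made by the authors from amplified cDNA and read as single reads of 75 cycles. Per the labels and file headers they used bcl2fastq 2.18, STAR 2.7.2a and featureCounts 1.6.2 with GENCODE M21 on GRCm38.p6, without strand and without reads that align to several places. The authors deposited raw counts per gene name, with exon lengths. Depth is 18644807 to 25882122 counts per library, and since cDNA was amplified and no molecular identifiers were used, reads overstate the molecules sampled.

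From the counts, R 4.3.3, edgeR 4.0.16 and limma 3.58.1 gave TMM-scaled CPM, RPKM, filterByExpr filtering (minimum count 10), voomWithQualityWeights (the study's test, two-sided) and the quasi-likelihood test. Weights ran from 0.448 (outside graft 1) to 1.76 (outside graft 4). DESeq2 1.42.0, other scalings, filters, a replicate block and left-out libraries were alternatives. The scripts were tested on simulated data. The members and gene lists were chosen with earlier results of these data known. Named were Rab7, Rab7b, Rab27a, Rab32, Rab38, members with an unadjusted P below 0.05, the most abundant and most changed member of each role class, untested members, and at most 4 genes of each pathway list. Rab5b, Rab6a, Rab1a, Rab1b, Rab3a, Rab5a, Rab5c, Rab8a, Rab8b, Rab23, Ric1 and the genes ranked by level fell outside this rule. They were added after their values were seen. All 21 pairs of libraries differed by more than counting noise.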

Additional observations from a re-analysis of the deposited data

Results flagged for a closer look

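In the 4 outside libraries, 27 values (CPM of the named Rab genes and of Rab44, and summed CPM of the marker lists and of the Rab family) were searched for a single library far from the others by Dixon's ratio, and 4 stood apart. Rab44 is counted in the 27 but gave no ratio, since it was 0 in all 4 libraries. Chance alone gives about 1 in 20. For Rab38, outside graft 1 had 0.0534 CPM, a single count, and the others 0, which fixes the ratio whatever the value, so this one cannot be set against the chance rate. The neutrophil markers summed to 367 CPM in outside graft 3 and to 0.311-18.1 CPM in the others. The neuron markers summed to 10.5 CPM in outside graft 1, which also had the lowest total count, and to 4.31-5.35 CPM in the others. The oligodendrocyte markers summed to 155 CPM in outside graft 1 and to 164-166 CPM in the others. In outside graft 3 Rab44 had 0 counts and Rab3d 5.07 CPM.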

How the results depend on the processing

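At an adjusted P below 0.05, 75 genes and 0 Rab genes passed. With other settings these became 225 and 1 (Rab44, which enters only through the inside libraries where it is high) when only genes without counts were removed, 211 and 2 (Rab7b, Rab6b) with at least 10 counts in every library, 15 and 0 with edgeR, 420 and 3 (Rab7b, Rab6b, Rab3d) with DESeq2, and 10 and 0 without quality weights. Leaving out 1 library gave 1 to 207 genes, 1 without outside graft 3 or outside graft 4 and 207 without inside graft 2, and 0 to 1 Rab genes (Rab44 without inside graft 2). Without inside graft 1 and 3, chosen after seeing the data, 145 genes and 1 Rab gene (Rab7b) passed. In edgeR the 0 Rab genes became 3 (Rab7b, Rab6b, Rab44) without the filter, 1 (Rab7b) with at least 10 counts in every library and 0 to 1 with 1 library left out. The 4 Rab genes higher at an unadjusted P below 0.05 became 2 with library size alone, 2 with at least 10 counts and 1 to 5 with 1 library left out, and the 3 lower ones 1 to 4. The 15 Rab-cycle genes became 8 to 23 with 1 library left out. The median Rab log2 fold change of -0.0456 ran from -0.115 to 0.0051 with 1 library left out. Rab7b kept its sign in all 17 settings (1.26, without outside graft 3, to 2.14) and Rab6b in all 17 (-0.75 to -0.56). The sign turned for Rab10 (-0.0473 becoming 0.0024 with DESeq2 and -0.17 to 0.0596 with 1 library left out, above 0 without inside graft 2 or outside graft 4) and for Rab19 (0.556 without inside graft 1 and 3). The causes of these changes were not tested. With the replicate number as a replicate block and without outside graft 4, 265 genes and 1 Rab gene (Rab7b, adjusted P = 0.0131 in voomWithQualityWeights) passed. Same-numbered libraries correlated at -0.0432, 0.0902 and 0.0666 in their deviations from the group mean. Values this small from so few libraries cannot decide whether the numbers pair them, and the labels do not say.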

Other observations

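Lrrk2, the kinase that phosphorylates Rab8a, Rab10, Rab29 and other Rabs, was named after its values were seen. It had 6.36, 0.266 and 15.5 CPM inside the graft and 0.0534, 0, 1.45 and 0 CPM outside. Lrrk2 passed the filter on low counts only with the inside libraries, where it was high. Its order over the inside libraries was that of Rab44 and of the neutrophil sum, and its log2 fold change of 4.86 had an unadjusted P of 0.0847 and an adjusted P of 0.502 in voomWithQualityWeights. The part of other myeloid cells in these values was not tested.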
